A study of Oryza sativa Indica Group with 2 samples.

Results

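Heat stress transcription factors were described in chilled leaves of a pair of indica rice genotypes. The members are 10 rice loci listed by locus identifier, HsfA1, HsfA2a, HsfA2c, HsfA2d, HsfA2e, HsfA3, HsfA4d, HsfB2b, HsfB2c and HsfC1b, and every coding-sequence model of these loci in the authors' deposited comparison was taken. Of the 10 loci, 3 were in the table, with 5 models, among 3946 loci and 5804 models in all. OsHsfA1 was in it with 1 model and OsHsfA2d and OsHsfA3 with 2 models each. The other 7 loci had no model there.

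The study took leaves of 2 IRGA lines with related names, one labelled cold-tolerant and the other cold-sensitive. Seedlings of both, about 20 days old and with 3 leaves, had spent 6 h at 10 °C in light of 40 µmol m-2 s-1, after growth in a greenhouse. RNA of 9 plants made up 1 poly-A library per genotype, and no unchilled or heated plants were part of the comparison, so it sets chilled leaves of the genotypes against each other and holds no response to cold or to heat. Neither the table's header nor the labels say which genotype is the numerator of the fold change, so library A stands for the numerator and library B for the denominator. Whether the tolerant genotype is A or B is not known here. All 5 leaf genes used as a check of the tissue, of Rubisco, its activase, light harvesting, photosystem I and photorespiration, were in the table, at 168 to 27181 RPM in A and 304 to 28822 RPM in B. RPM is the usual unit of reads relative to library size, which was taken here as 12846997 reads for A and 12152372 for B.

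Heat stress transcription factors, or HSFs, bind heat shock elements in promoters through a conserved domain and, as trimers, switch on genes for chaperones. Plants have many more HSFs than animals, in classes A, B and C. Class A factors carry an activation domain, while class B factors lack it and several act as repressors or co-regulators, as described in Arabidopsis and tomato. In tomato, HsfA1a is the factor that starts the heat response, and HsfA2 is a heat-induced partner that prolongs it. Although named for heat, HSF genes of rice also respond to cold, salt, drought and oxidative stress.

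OsHsfA3 had the widest difference of the members found and OsHsfA2d the next, both with more reads in library B, while OsHsfA1 had more in library A. None of the 3 differed by as much as a doubling. A share of 27.2% of all loci in the table differed by at least 1 on the log2 scale, and so few members allow no contrast with it. That share also includes loci with few reads, which entered only with large ratios. Among models within 10% of 50 reads over both libraries, the smallest absolute log2 ratio was 1.20. The 3 members had 1932 to 2991 reads, beside a median of 626 reads per locus. Each genotype had 1 library, so none of the differences between the libraries has a replicate check, and no test of the genotypes was run. Intervals are exact 95% intervals, by Poisson counting around a level and by the Clopper-Pearson method around a ratio, and cover counting error only, with the spread between plants and any PCR copies left out.

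Of the class A1 factors, OsHsfA1 (LOC_Os03g63750, chromosome 3) is the single listed member, and in tomato and Arabidopsis this class sits at the head of the heat response. It had 1069 reads in library A and 863 in library B. These were 83.2 RPM (78.3 to 88.4) in A and 71.0 RPM (66.4 to 75.9) in B. The 2 intervals of level did not overlap, which at such read numbers follows from being in the table and adds no support. The log2 ratio of A over B was 0.23 (0.10 to 0.36), a level 1.17-fold higher in A. In the authors' deposited table its adjusted p, from edgeR, was 0.00828. It was the member nearest to the table's limit of 0.05.

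Of the class A2 factors, 1 of the 4 listed was in the table. OsHsfA2d (LOC_Os03g06630, chromosome 3) had 1177 reads in A and 1452 in B for model 2. That was 91.6 RPM (86.5 to 97.0) against 119 RPM (113 to 126), and library B was the higher. The intervals did not overlap, which again follows from being in the table. The log2 ratio was -0.38 (-0.50 to -0.27), a level 1.30-fold higher in B, and the authors' deposited table gives it an adjusted p of 6.33e-10 from edgeR. Model 1 of the same locus had 1172 and 1434 reads and a log2 ratio of -0.37 (-0.48 to -0.26). Model 1 had 99.6% of model 2's reads in A and 98.8% in B, so the models are close to 1 measurement counted under 2 names. The RefSeq entry that carries the name HSFA2D also lists names of an acireductone dioxygenase, an enzyme of methionine recycling, so the name rests on the locus identifier and field knowledge. OsHsfA2a (LOC_Os03g53340), OsHsfA2c (LOC_Os10g28340) and OsHsfA2e (LOC_Os03g58160) had no model in the table. Class A2 is the group that accumulates most under heat in several plants, and how the 3 others stood in these leaves cannot be read from the table.

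OsHsfA3 (LOC_Os02g32590, chromosome 2) belongs to a class that in Arabidopsis is switched on by the drought and heat factor DREB2A. Model 1 had 1226 reads in A and 1765 in B, the largest read numbers of the members found. Its level was 95.4 RPM (90.2 to 101) in A and 145 RPM (139 to 152) in B. Library B was the higher, with a log2 ratio of -0.61 (-0.71 to -0.50), or 1.52-fold (1.41 to 1.64) higher in B. The authors' deposited table gives an adjusted p of 6.65e-28 from edgeR for this model.

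Model 2 of OsHsfA3 held fewer reads than model 1, 972 in A and 1425 in B, and its log2 ratio was -0.63 (-0.75 to -0.51). It had 79.3% of model 1's reads in A and 80.7% in B. The reads by which the models differ, 254 in A and 340 in B, had a log2 ratio of -0.50 (-0.74 to -0.26), if model 1 includes all reads of model 2. That interval overlaps those of both models, and no difference between the models was detectable at this depth.

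**Figure D1:**
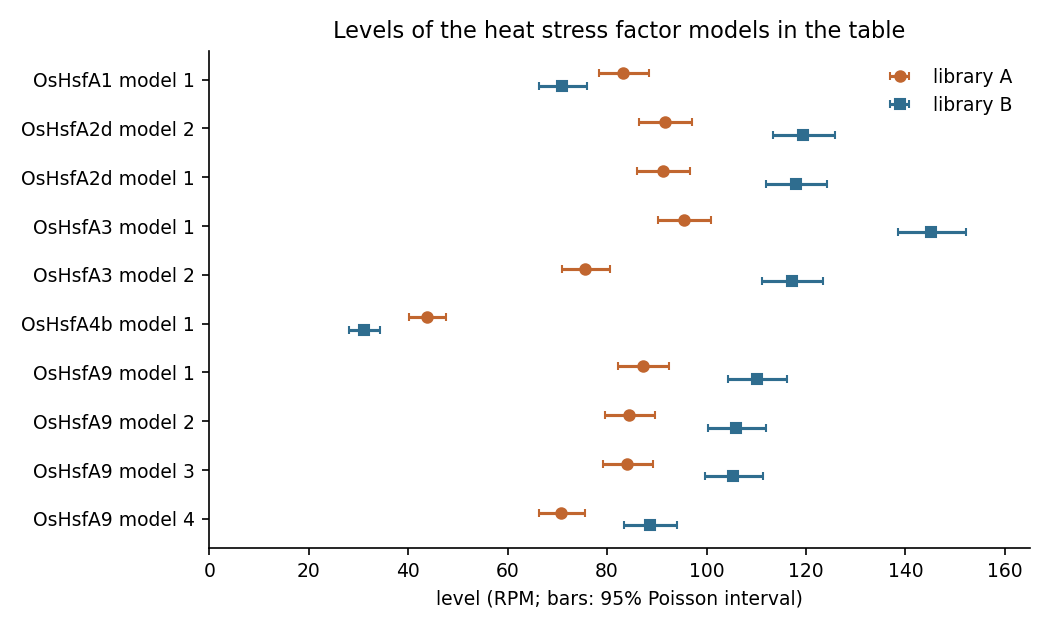
Level in RPM of each HSF model in the table, in library A (circles) and library B (squares), with 95% Poisson intervals as bars, for the 3 members found and for OsHsfA4b and OsHsfA9 of the same family. OsHsfA3 shows the widest gap, at 95.4 RPM in A and 145 RPM in B, and the models of 1 locus lie close together; levels of different genes are not comparable because they are not per length.

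The remaining 4 members absent from the table come from 3 classes. OsHsfA4d (LOC_Os05g45410) is the gene of the rice spotted leaf mutant spl7, in which leaves form lesions under heat and strong light. OsHsfB2b (LOC_Os08g43334) and OsHsfB2c (LOC_Os09g35790) are of class B, which holds repressors in Arabidopsis, and OsHsfC1b (LOC_Os01g53220) is a class C factor tied to salt and osmotic stress in rice. No value of a class B or class C member is therefore available here, and every value above is of class A.

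Absence from the table has a limited reading. The authors tested 67393 models, as the relation of p to adjusted p shows, and 8.61% of them were called at an adjusted p under 0.05, with 3.47% higher in A and 5.14% higher in B. The table holds the called models alone. A member without a model there either missed that limit or was not among the models tested, and its level is unknown. The ratio needed to enter depended on reads. Among models within 10% of 100 reads over both libraries, the smallest absolute log2 ratio in the table was 0.83, at 1000 reads it was 0.26 and at 5000 reads 0.12. OsHsfA1, with 1932 reads and an absolute ratio of 0.23, lay just above the smallest ratio at its depth, 0.19. OsHsfA2d and OsHsfA3 lay well above the smallest at theirs, 0.16 for both. A share of 3 in 10 loci cannot be set directly against 8.61%, which counts models, and how many HSF models were tested is not known.

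The scaling of the libraries bears on how the members read. In the table as a whole 58.6% of loci were higher in B, and the median log2 ratio over its models was -0.30. Centring on that median adds 0.30 to every ratio, and scaling to the table's own read totals adds 0.20. OsHsfA3 remained higher in B under both, at -0.30 (-0.41 to -0.20) centred and -0.41 (-0.51 to -0.30) with the totals. OsHsfA2d came to -0.08 (-0.19 to 0.03) centred, an interval that includes 0, and to -0.18 (-0.29 to -0.07) with the totals. OsHsfA1 came to 0.53 (0.40 to 0.66) and 0.43 (0.30 to 0.56). Both shifts go towards A, so OsHsfA1, already above 0, could only move farther from 0 and was not put to a check by them. OsHsfA3 was higher in B under all 3 scalings, while the centred interval of OsHsfA2d included 0. Both alternatives were computed from the called models alone, of which more were higher in B. They are therefore no estimate of library size and cannot tell an effect of scaling from a difference between the libraries. The authors' scaling itself cannot be checked from a table of called models.

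**Figure D2:**
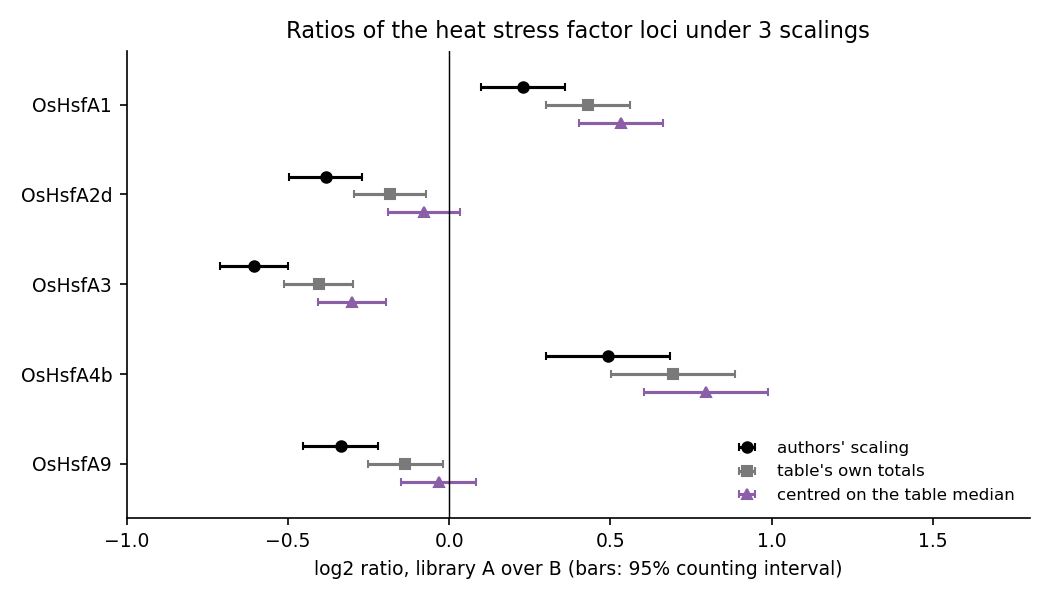
Log2 ratio of library A over library B for the model with most reads of each HSF locus in the table, under the authors' scaling (circles), the table's own totals (squares) and centring on the table's median (triangles), with 95% counting intervals as bars. OsHsfA3 lies left of 0 under each, whereas the centred interval of OsHsfA2d reaches from -0.19 to 0.03. OsHsfA1 and OsHsfA4b lie right of 0 under each, as they must, since both other scalings shift every ratio to the right.

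Differences between members do not depend on the scaling, since it shifts all of them alike. The log2 ratio of OsHsfA1 exceeded that of OsHsfA3 by 0.83 (0.67 to 1.00, exact conditional interval of the odds ratio). It exceeded that of OsHsfA2d by 0.61 (0.44 to 0.78). OsHsfA2d in turn exceeded OsHsfA3 by 0.22 (0.07 to 0.38). The first 2 of these differences had to be positive, because the table holds OsHsfA1 as called higher in A and the others as called higher in B, so they describe the size of the gap and add no support for it. Whether plants of 1 genotype vary by as much was not measured.

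Of the 15 further rice HSF loci, 2 were in the table, so that the whole family of 25 had 5 loci there. Library A was the higher for 2 of them and library B for 3, under each scaling. The 2 higher in A could not have turned, since both other scalings shift every ratio towards A. OsHsfA4b (LOC_Os01g54550, chromosome 1) had 562 reads in A and 378 in B, or 43.7 RPM (40.2 to 47.5) and 31.1 RPM (28.0 to 34.4). Its log2 ratio of 0.49 (0.30 to 0.68) was the larger among the 2 HSF loci in the table that were higher in A. The authors' deposited table gives an adjusted p of 8.10e-06 from edgeR. Class A4 factors are linked to oxidative stress and cell death in Arabidopsis and rice.

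OsHsfA9 (LOC_Os03g12370, chromosome 3), of a class known from seed maturation in sunflower and Arabidopsis, was in the table with 4 models. Its model 1 had 1121 reads in A and 1339 in B, 87.3 RPM (82.2 to 92.5) against 110.2 RPM (104 to 116). The log2 ratio was -0.34 (-0.45 to -0.22), and the 3 other models stood at -0.33 each. Centred, model 1 came to -0.03 (-0.15 to 0.08), an interval that includes 0.

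Pairs of HSF loci called in opposite directions had to differ, so the pairs called in the same direction are the ones given here. OsHsfA2d and OsHsfA9 had nearly the same ratio, with a difference of -0.05 (-0.21 to 0.12). OsHsfA3 lay below OsHsfA9 by a difference of -0.27 (-0.43 to -0.11). OsHsfA1 lay below OsHsfA4b by a difference of -0.26 (-0.50 to -0.03). The smallest absolute ratio in the table at the depth of OsHsfA4b was 0.27, above the 0.23 of OsHsfA1. The direction of this last difference was thus set by the limit for entering the table and adds no support. Reads shared by family members could blur such differences, and the treatment of reads with several matches is not given in the sources used here. None of OsHsfA1, OsHsfA2d, OsHsfA3 and OsHsfA4b had read numbers within 1% of those of another locus of the table in both libraries. OsHsfA9 had 2 such loci, none of them equal to it. This compares whole read numbers of called loci, so it cannot show reads shared in part or with loci outside the table.

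The genes on which HSFs act, or which act on them, were taken in 3 lists. Their counts by direction stand beside a table in which 58.6% of loci were higher in B and which holds 8.61% of the models tested. That last share counts models, so the numbers of listed loci found cannot be set directly against it. Loci with many reads also entered the table at smaller ratios. Small heat shock proteins, which hold unfolding proteins and are among the strongest HSF targets in heated plants, had 23 listed loci, of which 3 were in the table. LOC_Os02g52150 was read 128 times in A and 213 times in B, for a ratio of -0.81 (-1.14 to -0.49) on the log2 scale. LOC_Os01g04350 had 52 and 86 reads, with a ratio of -0.81 (-1.33 to -0.29). LOC_Os01g08860 was the one higher in A, with 16 reads against 2 and a ratio of 2.92 (0.83 to 6.08), an interval too wide for a size to be read from it. The levels of these 3 loci were between 0.165 and 17.5 RPM over both libraries. None changed sign under another scaling, but the centred interval of LOC_Os01g04350, -1.03 to 0.01, includes 0.

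The larger chaperones had 9 of 20 listed loci in the table. Of these, B exceeded A at 8 and A exceeded B at 1 under the authors' scaling, in a table where B exceeded A at 58.6% of all loci. The median log2 ratio of these 9 was -0.42, beside -0.31 over all loci of the table. LOC_Os09g30418 and LOC_Os09g30439, both counted here, hold the same reads, so 1 measurement enters these counts and the median under both names. Cytosolic HSP70 LOC_Os03g16860 had the most reads of them, with 5058 and 6474 reads and a ratio of -0.44 (-0.49 to -0.38). HSP70 LOC_Os01g62290 had the widest ratio, -0.83 (-0.98 to -0.69). HSP70 LOC_Os05g38530 stood at -0.53, LOC_Os03g16920 at -0.61 and the plastid HSP70 LOC_Os05g23740 at -0.39. Cytosolic HSP90 binds and restrains HSFs in unstressed cells, and of its loci LOC_Os08g39140 stood at -0.42 (-0.49 to -0.34).

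The HSP90 loci LOC_Os09g30418 and LOC_Os09g30439 had the same 3697 and 3769 reads, at a ratio of -0.11, and so are not separate measurements. Both turned to 0.20 when centred and to 0.09 with the table's totals, so that 6 chaperone loci had the higher level in B and 3 in A under either scaling. The organellar HSP90 LOC_Os09g29840 was the locus higher in A under the authors' scaling, at 0.30 (0.11 to 0.49). HSP101 (LOC_Os05g44340), the disaggregase needed for thermotolerance in Arabidopsis and maize, was not in the table.

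Of 8 listed genes linked to HSFs, 5 were in the table and all 5 were higher in B under the authors' scaling, against 1 of 5 when centred and 4 of 5 with the table's totals. OsDREB2B (LOC_Os05g27930), a rice relative of the Arabidopsis factor that acts on HsfA3, had 1236 reads in A and 1316 in B for model 1. Its ratio of -0.17 (-0.28 to -0.06) turned to 0.13 when centred and to 0.03 with the table's totals. Its 3 other models shared 994 and 1108 reads, with a ratio of -0.24 that became 0.07 and -0.04 in the same order. OsGolS1 (LOC_Os03g20120), a galactinol synthase of a family that HsfA2 activates in Arabidopsis, stood at -0.45 (-0.61 to -0.30) and at -0.15 (-0.30 to 0.004) when centred. OsGolS2 (LOC_Os07g48830) at -0.30, and the cytosolic ascorbate peroxidases OsAPX1 (LOC_Os03g17690) at -0.22 and OsAPX2 (LOC_Os07g49400) at -0.25, turned to 0.01, 0.09 and 0.06 when centred. The HSF binding protein genes OsHSBP1 and OsHSBP2, whose products dampen HSFs, and the coactivator gene OsMBF1c were not in the table.

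**Figure D3:**
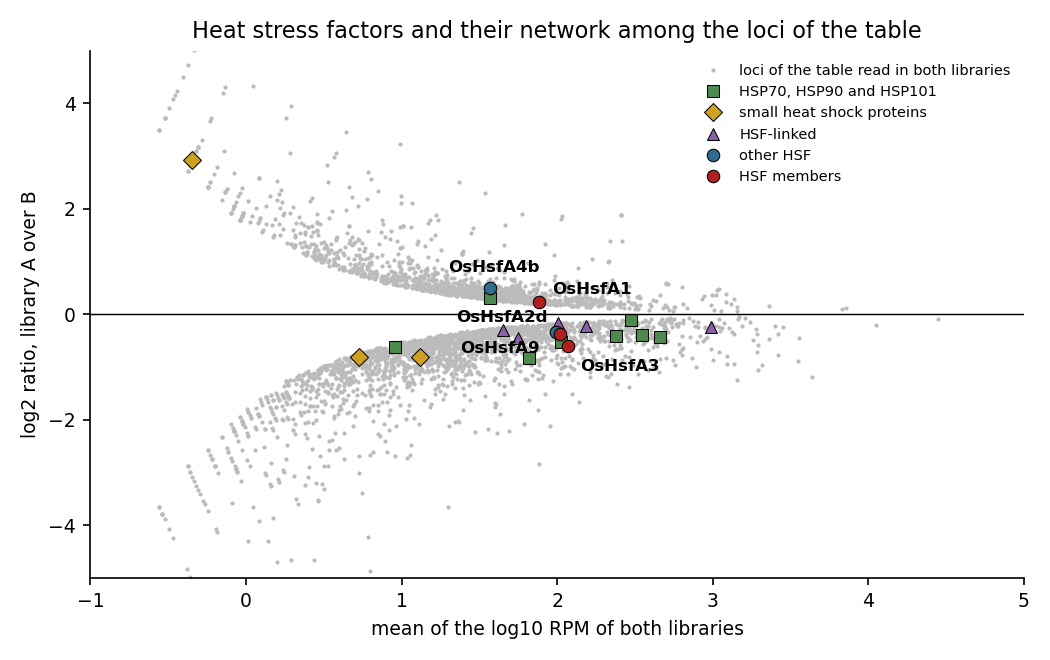
Log2 ratio of library A over B against the mean of the log10 RPM of both libraries, for loci of the table read in both (grey) and for the listed loci, each by its model with most reads; 13 loci beyond 5 on the log2 scale are not drawn. The gap around 0 is the limit for entering the table, and it narrows with level; OsHsfA1 at 0.23 lies close to its edge and OsHsfA3 at -0.61 farther from it.

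Loci of either direction stood around each of the 3 members found. Within 500 locus numbers on either side of OsHsfA1, 12 other loci were in the table, 4 higher in A and 8 higher in B, which centring turned to 8 and 4. OsHsfA2d had 14 such loci, 4 higher in A and 10 in B (6 and 8 when centred), and the locus next to it, LOC_Os03g06620, stood at -0.23 with 803 and 892 reads. OsHsfA3 had 13, of which 6 were higher in A and 7 in B with and without centring. The nearest locus of the table was LOC_Os03g63770 at 0.35 for OsHsfA1, in the same direction as OsHsfA1. For OsHsfA3 it was LOC_Os02g32610 at 0.23, in the opposite direction to OsHsfA3. Around the absent OsHsfA2c and OsHsfA2e the table held 3 loci each, all of them higher in B. When centred, 1 of those around OsHsfA2c was higher in A and 2 in B, while all 3 around OsHsfA2e stayed higher in B. So few loci allow no contrast with the members found. No stretch around the members found was higher in a single library throughout. Over all 10 members, 60 of 93 such loci, or 64.5%, were higher in B, beside 58.6% in the table. When centred the count was 49, or 52.7%, beside 50.2% in the table.

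Reads in 1 library alone were found at 3 of the loci near members. LOC_Os03g06940, which lies 310 locus numbers from OsHsfA2d, had 9 reads in B and 0 in A, a level at least 1.45-fold higher in B than the floor of 3 reads. LOC_Os09g35540, near OsHsfB2c, was read 23 times in B and never in A, which puts B at least 5.13-fold higher. LOC_Os01g52810, near OsHsfC1b, was read 19 times in A and never in B, which puts A at least 3.60-fold higher. These floors are 3 reads per library, set against the lower limit of the other level. Locus numbers give the order along a chromosome and not a distance in bases.

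**Figure D4:**
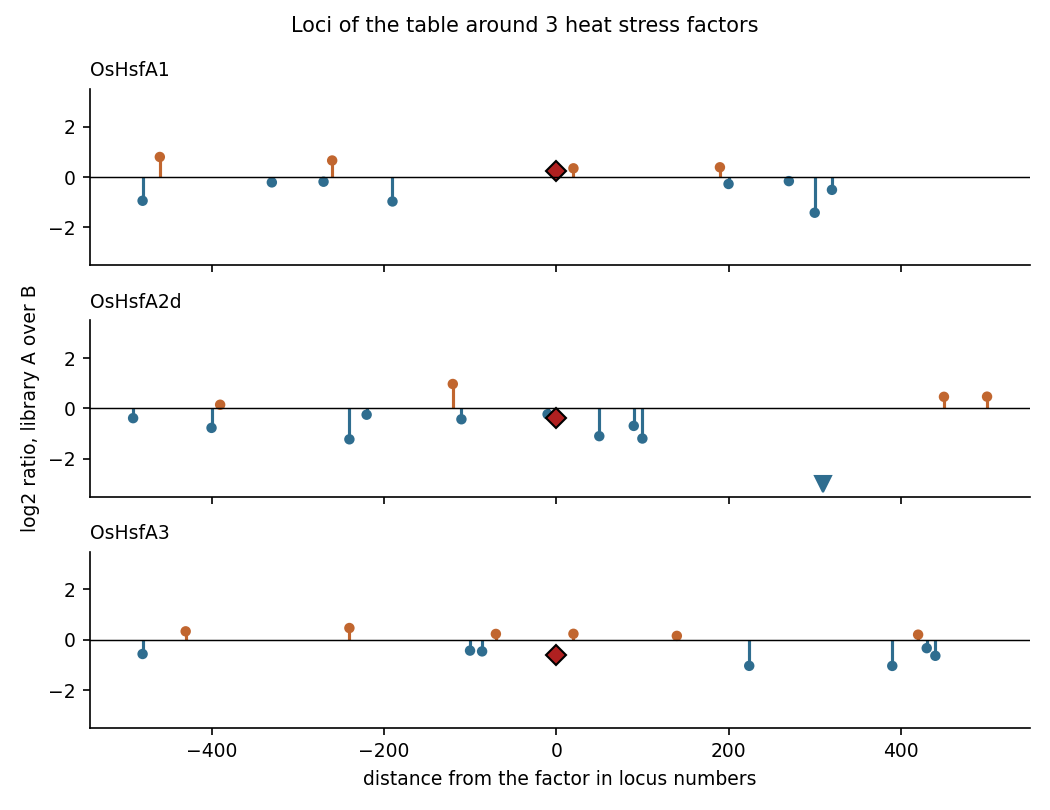
Log2 ratio of library A over B for loci of the table within 500 locus numbers of OsHsfA1, OsHsfA2d and OsHsfA3, by distance in locus numbers, with the factor as a diamond at 0. Orange marks are higher in A and blue ones higher in B, and the triangle near OsHsfA2d is LOC_Os03g06940, read in B alone and placed at the edge without a ratio; loci of either colour stand around each factor.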

How the data were processed

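Leaf mRNA was sequenced as single-end reads of 100 bp, per the labels' protocols. Bowtie 0.12.7 and edgeR are named in the submitters' processing notes. For the build, the annotation and the counting of multiply matching reads nothing is given in the sources used here. The authors deposited 1 table of called models with the log2 fold change and, averaged over both libraries, the log2 read share, per the file headers. The deposited p-value and adjusted p-value are the authors'.

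Reads were recovered by solving the log2 columns for each library's share. 100% of values in both libraries were whole within 1e-06 of a read, and recovery was tested on simulated data. The scaled sizes, 12846997 and 12152372 reads, set the depth. The authors' p-values of the 10 HSF models were 0.99 to 1.20 times an exact binomial p from these reads, so they cover counting error. The model with most reads stands for a locus. All listed members are named, and near loci only if nearest to a member found or read in 1 library. Members, lists and alternatives were chosen with earlier results of these data known. The design foresaw no test, since each genotype has 1 library.

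The names come from field knowledge. RefSeq (ASM3414082v1) held 23 of 25 HSF names, all on the chromosome of the locus and within 7.66% of its length of the expected place (1.52% for the 10 members), which cannot tell neighbours apart. The entries for HSFA2D and HSFA2C also list acireductone dioxygenase names. The names of chaperones and linked genes were not checked. Python 3.11.15, NumPy 2.4.6, pandas 2.3.3, SciPy 1.17.1 and Matplotlib 3.10.9 were used. Alternatives were 2 scalings, a limit of 1 on the log2 ratio, an adjusted p of 0.01, pseudocounts of 1 and 0.1 RPM, and other models.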

Additional observations from a re-analysis of the deposited data

How the results depend on the processing

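Of the 3 members in the table, 1 was higher in library A and 2 in B under each scaling and at an adjusted p of at most 0.01 (edgeR, authors' table). With a limit of 1 on the absolute log2 ratio both counts were 0, because fewer loci reach it. Counted by model, an alternative chosen after seeing the data, they were 1 and 4. Chaperones higher in A went from 1 to 3 when centred and to 3 with the table's totals, with the HSP90 loci that share their reads counted separately. Linked genes higher in A went from 0 to 4 when centred and to 1 with the totals, and those higher in B from 5 to 1 when centred. Both scalings add a positive constant to every ratio, so the HSF ratios above 0 could not change sign. No HSF ratio below 0 changed sign, although the centred intervals of OsHsfA2d and OsHsfA9 include 0. All 5 HSF ratios left their counting intervals under both scalings. Pseudocounts left all 5 within their intervals, and the model with fewest reads did so for the 3 loci with several models. No paired analysis was possible because there is a single library per genotype. Depth limits OsHsfA4b most among the factors, and the 7 members outside the table have no value.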
